A study of Mus musculus with 2 samples.

Results

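The cells described here were microglia, the resident macrophages of the brain, that carried 5 or more unique molecular identifiers (UMIs, each one counted transcript molecule) of the chemokine genes Ccl3 and Ccl4 together. They are called high-chemokine microglia below. A barcode was taken as microglial when P2ry12, Cx3cr1, Csf1r, Selplg and Gpr34 summed to 10 or more raw UMIs, Cd74 was under 10, the oligodendrocyte genes Mog, Mag, Ermn, Opalin and Cldn11 summed to under 10 and the choroid plexus genes Folr1, Kcnj13, Sostdc1, Calml4, Cox8b and Kl summed to under 8. Of 10015 barcodes in the series, 1151 passed these conditions and 462 of them had the 5 chemokine UMIs. The other 689 are called low-chemokine microglia. The cells were thus chosen by their measured Ccl3 and Ccl4 UMIs, and how these and the other rule genes differ from the low-chemokine microglia is a description of the choice, not a finding.

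The samples were hippocampal cell suspensions of 57-week-old mice, 1 library of GlaKO mice and 1 library of wt littermates. GlaKO mice lack alpha-galactosidase A, the lysosomal enzyme encoded by Gla, and model Fabry disease. Mice of both genotypes were anaesthetised with xylazine and ketamine and perfused with PBS, and the hippocampi were digested enzymatically. A density gradient took out debris, and cells were sorted on the dye 7-AAD before droplet capture with 3' chemistry. How many animals went into each library is not stated in the labels. With 1 library per genotype there was no replicate, so no test was made between genotypes, and cells of a library were not treated as replicates. All intervals below are exact 95% intervals that cover counting error only.

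CCL3 and CCL4 are secreted chemokines, also known as macrophage inflammatory proteins 1 alpha and 1 beta, that draw monocytes, T cells and other leukocytes. Microglia transcribe both genes after activation of pattern receptors and the transcription factor NF-kB. Enzymatic dissociation of living tissue is known to switch on immediate-early genes such as Fos, Jun and Egr1 within minutes, and in microglia also chemokine and cytokine genes, so a transcript level in a dissociated cell can differ from that in the intact brain. No sample here was prepared without enzymes, and how much of any level arose during dissociation was not tested.

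The GlaKO library gave 308 high-chemokine microglia among 707 microglia and 4572 barcodes. The wt library gave 154 among 444 microglia and 5443 barcodes. The libraries held 29914106 UMIs in GlaKO and 31929688 in wt, with medians of 6101 and 5054 UMIs per barcode. High-chemokine microglia had medians of 6912.5 UMIs in GlaKO and 6577 in wt, while low-chemokine microglia had 6079 in GlaKO and 4635 in wt. They were therefore the deeper cells in both libraries, and a threshold on raw UMIs favours deep cells. The median share of mitochondrially encoded UMIs in high-chemokine microglia was 0.959% in GlaKO and 0.972% in wt, and in low-chemokine microglia 1.09% in GlaKO and 0.931% in wt. The libraries shared 6 barcode sequences, 0 of them among the microglia.

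Gla itself, on chromosome X, was read as a check of the labels. It had 222 UMIs in the GlaKO library, or 7.42 CPM (its UMIs per 1000000 UMIs of the library; 6.48 to 8.46), against 397 UMIs and 12.4 CPM (11.2 to 13.7) in wt. In high-chemokine microglia it had 23 UMIs in GlaKO and 17 in wt. The level was lower in the GlaKO library but not at 0. A 3' library may read a stretch that the deletion leaves in place, so Gla UMIs are no check of the genotype here.

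The cells carried the microglial identity that the label gives them. Among markers that the rule did not use, Tmem119, Siglech, C1qa and Cst3 were each seen in 292 or more of 308 GlaKO and 145 or more of 154 wt high-chemokine microglia. A list of 26 microglial genes outside the rule summed to 91127 CPM in GlaKO and 98943 in wt high-chemokine microglia. Choroid plexus barcodes had 4252 and 4015. Barcodes with microglial genes and 10 or more Cd74 UMIs had 77439 and 48841, so the list is not particular to high-chemokine microglia. Siglech, a sialic acid-binding surface receptor of microglia, was at 864 CPM in GlaKO and 783 in wt high-chemokine microglia, against 983 in GlaKO and 876 in wt low-chemokine microglia. Markers of other brain cells were read as well. Oligodendrocyte markers, among them Mbp, Mobp, Mal and Cnp, summed to 735 CPM in GlaKO and 369 in wt high-chemokine microglia. They were widespread, with 3 or more UMIs in 240 of 308 GlaKO and 62 of 154 wt cells. The rule capped other oligodendrocyte genes, so the level of these markers follows in part from the choice of cells. Astrocyte markers summed to 382 in GlaKO and 364 in wt, neuron markers to 107 in GlaKO and 105 in wt. Markers of other immune cells were read as lists of border macrophage, monocyte and neutrophil, T and NK cell, and B cell genes. Of the high-chemokine microglia, 47 GlaKO and 14 wt cells held 3 or more such UMIs, as did 41 GlaKO and 35 wt low-chemokine microglia. T and NK cell markers summed to 213 CPM in GlaKO and 74.9 in wt high-chemokine microglia, and B cell markers to 20.5 in GlaKO and 11 in wt, with Cd79a at 0 and Cd79b present.

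Ccl3 and Ccl4 lie next to each other on chromosome 11, Ccl3 at chr11:83647844-83649355 on the minus strand and Ccl4 at chr11:83662584-83664683 on the plus strand, with 13228 bases between them (GRCm38, GENCODE annotation). High-chemokine microglia held most of the chemokine UMIs of each library, 14368 UMIs or 77.1% in GlaKO and 6915 UMIs or 76.9% in wt. Their summed level was 6547 CPM in GlaKO and 6907 in wt, against 120 in GlaKO and 113 in wt low-chemokine microglia. Other immune barcodes carried the genes too: barcodes with microglial genes and high Cd74 had 4867 CPM in GlaKO (49 barcodes) and 3643 in wt (15 barcodes), and T cell barcodes had 790 in GlaKO and 734 in wt. Cells that should lack these chemokines gave the background of free RNA. Oligodendrocyte barcodes were at 21.6 CPM in GlaKO and 10.6 in wt, and choroid plexus barcodes at 9.21 in GlaKO and 5.47 in wt. Of oligodendrocyte barcodes, 9.55% in GlaKO and 5.46% in wt had any Ccl3 or Ccl4 UMI, at median depths of 6711 and 5821 UMIs. A single microglia with 1 or 2 such UMIs can thus owe them to free RNA. Low-chemokine microglia had any such UMI more often than oligodendrocyte barcodes in both libraries, at lower median depths. How many of their chemokine UMIs came from free RNA was not tested. At 5 or more UMIs the share of oligodendrocyte barcodes was 0.145% in GlaKO and 0 of 861 barcodes in wt, which allows a share of up to 0.428% (Clopper-Pearson bound).

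Chemokine UMIs were spread over a wide range without a gap at the threshold. No Ccl3 or Ccl4 UMI was seen in 33.7% of GlaKO and 43.5% of wt microglia, and the classes of 5 to 9, 10 to 19 and 20 to 49 UMIs held 7.21%, 8.63% and 15.1% of GlaKO microglia and 7.88%, 8.11% and 9.46% of wt microglia. Cells with 100 or more UMIs made up 4.24% in GlaKO and 3.83% in wt. Just inside the threshold, 8 GlaKO and 9 wt cells had 5 UMIs, with median depths of 7495 and 5608 UMIs. Just outside it, 12 GlaKO and 9 wt cells had 4 UMIs, with median depths of 8909 and 7421. The cells on either side of the threshold were thus few and alike in number. The classes of 2 and of 3 to 4 UMIs each held 5.66% of GlaKO microglia, and they held 4.05% and 4.28% of wt microglia. These shares were below those of the class of 5 to 9 UMIs, but the classes differ in width. Whether high-chemokine microglia form a separate population was not tested.

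**Figure D1:**
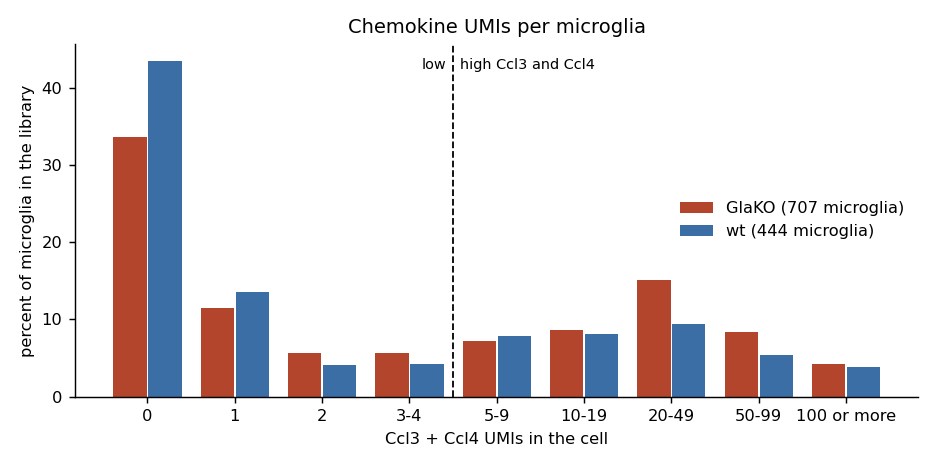
Share of microglia (percent of all microglia of a library, vertical axis) by the raw Ccl3 and Ccl4 UMIs of a cell (classes on the horizontal axis), GlaKO bars left of wt bars, with the threshold of 5 UMIs as a dashed line. The class of 0 UMIs is the fullest in both libraries, at 33.7% in GlaKO and 43.5% in wt, and the classes continue across the threshold without a gap.

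Within the high-chemokine microglia the UMIs were uneven. The median cell had 27 Ccl3 and Ccl4 UMIs in GlaKO and 23 in wt, and the highest had 789 in GlaKO and 401 in wt. The tenth of cells with the most held 40.2% of these UMIs in GlaKO and 45.1% in wt. The genes made up a median of 0.45% of a cell's UMIs in GlaKO and 0.40% in wt, and up to 7.44% in GlaKO and 10.3% in wt. Ccl4 gave most of the sum, with a median of 20 UMIs in GlaKO and 14 in wt, while Ccl3 had a median of 6 in both. Ccl3 was at 0 in 71 GlaKO and 33 wt cells, and Ccl4 at 0 in 26 GlaKO and 16 wt cells. Both were seen in 211 of 308 GlaKO and 105 of 154 wt cells, and Ccl3 exceeded Ccl4 in 59 GlaKO and 38 wt cells. Cells with 1 gene at 0 passed the rule on the other gene alone, as a selection on the sum allows. Of the high-chemokine microglia, 16.6% in GlaKO and 22.7% in wt had 5 to 9 UMIs, where a 0 can also be a matter of counting. Across cells the UMIs of Ccl3 and Ccl4 had a Spearman correlation of 0.20 in GlaKO and 0.31 in wt high-chemokine microglia. These cells share library, depth and a selection on the sum, so the value only describes them.

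High-chemokine microglia were 43.6% of microglia in GlaKO (39.9% to 47.3%) and 34.7% in wt (30.3% to 39.3%). Their share was higher in the GlaKO library, by a difference that the counting intervals do not cover, in a comparison of 1 library with 1. GlaKO microglia were also deeper. After every microglia was thinned to 1500 UMIs, with 4 GlaKO and 4 wt cells left out as shallower, the same threshold was met by 28.2% in GlaKO (24.9% to 31.6%) and 20.7% in wt (17.0% to 24.8%). At a threshold of 20 UMIs the shares were 27.7% in GlaKO and 18.7% in wt. Whether animals, dissociation or genotype set this difference cannot be told apart with these libraries.

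What went with the chemokine UMIs was read from genes that the rule did not use, by setting high-chemokine against low-chemokine microglia within each library. The 2 libraries served as separate readings. A level, in CPM, is the summed UMIs of a gene per 1000000 summed UMIs of the cells of a class, and log2 ratios are high-chemokine over low-chemokine. A gene counted as higher or lower when it differed by 1.5-fold or more the same way in both libraries, among 3824 genes with at least 100 summed UMIs in each library. By this measure 42 genes, or 1.1% of those read, were higher and 4 genes, or 0.105%, were lower. Since both sides come from the same libraries and were split by correlated UMIs, these are descriptions and carry no p-value. Over all genes read the median log2 ratio was -0.03 in GlaKO and -0.11 in wt, and 685 genes, or 17.9%, were above 0 in both. Scaling by the trimmed mean of M-values (TMM) moved these medians to 0.02 in both libraries, a shift of the wt ratios that applies to each wt value below.

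**Figure D2:**
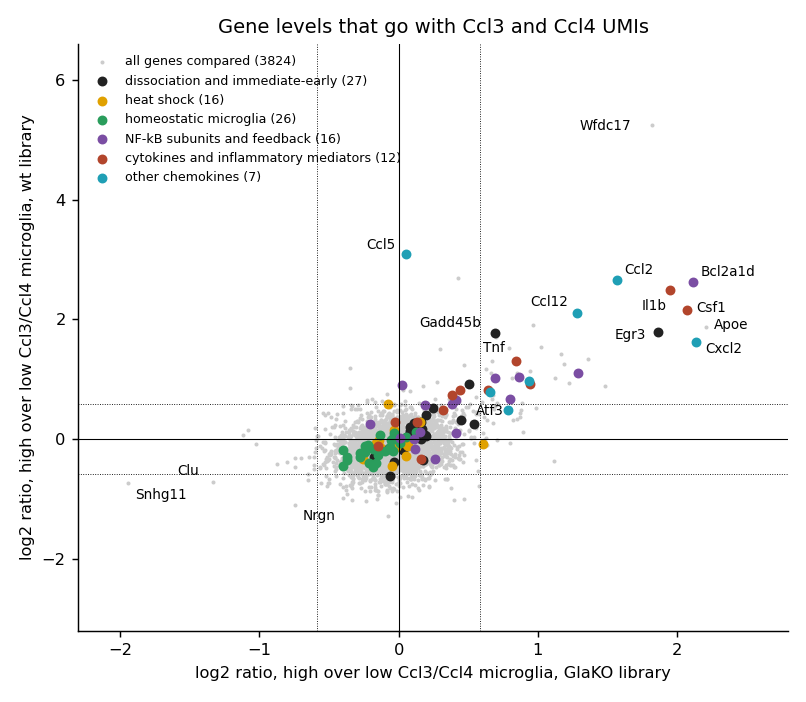
Log2 ratio of the level in high-chemokine over low-chemokine microglia for each gene read, GlaKO library on the horizontal and wt library on the vertical axis, with dotted lines at 1.5-fold. The 42 genes past the lines in both libraries sit at upper right, led by Bcl2a1d, Csf1, Il1b and Apoe, and only 4 genes lie past both lines at lower left.

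Other secreted chemokines and cytokines were among the genes that went with Ccl3 and Ccl4. Several were not particular to high-chemokine microglia. In the barcodes with microglial genes and high Cd74, Cxcl2 was at 630 CPM in GlaKO and 1248 in wt, and Il1b at 1697 and 4079. Ccl2 was at 246 in GlaKO and 1342 in wt there, and Ccl12 at 1221 and 1206. The cytokine list summed to 6782 and 12390 there, against 5012 and 5361 in high-chemokine microglia. Csf1 (125 CPM), Tnf (600) and Il1a (862) were lower there than in high-chemokine microglia in GlaKO, and Il1a (906) in wt. Of 14 other chemokines listed, 7 had enough UMIs to be read, all 7 were above 0 in both libraries and 5 were past 1.5-fold in both, against 1.1% of all genes read, with a list median log2 ratio of 0.94 in GlaKO and 1.62 in wt. Ccl2, a ligand of CCR2 that draws monocytes, was at 190 CPM in GlaKO high-chemokine microglia against 64.0 in low-chemokine microglia, and in wt at 226 against 35.7. Ccl12, another CCR2 ligand in mice, was at 289 against 119 in GlaKO and 558 against 130 in wt, with 1 wt cell holding 27.9% of the high-chemokine UMIs. Cxcl2, a neutrophil chemokine, was at 115 against 26.2 in GlaKO and 101 against 32.9 in wt. It came from few cells, 13 GlaKO and 8 wt high-chemokine microglia, and without cells that hold other immune markers its wt log2 ratio was -0.46. Cxcl16, a membrane-bound chemokine, differed evenly, with log2 ratios of 0.94 in GlaKO and 0.98 in wt.

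Among 12 cytokines and inflammatory mediators read, 5 were past 1.5-fold in both libraries, beside 1.1% of all genes read. The list medians were 0.41 in GlaKO and 0.78 in wt. Csf1, the growth factor that binds the microglial survival receptor CSF1R, was at 188 CPM in GlaKO high-chemokine against 44.7 in low-chemokine microglia, a log2 ratio of 2.07 (1.76 to 2.39). In wt it was at 193 against 43.4, a log2 ratio of 2.15 (1.73 to 2.59). Il1b, the inflammatory cytokine interleukin-1 beta, was at 329 against 85.3 in GlaKO (log2 ratio 1.95, 1.73 to 2.18) and 363 against 64.4 in wt (2.49, 2.16 to 2.84). Most high-chemokine microglia had no Il1b UMI: it was seen in 70 of 308 GlaKO and 37 of 154 wt cells, and the tenth of cells with the most held 88.9% of its UMIs in GlaKO and 83.5% in wt. Tnf, the cytokine tumour necrosis factor, was more widespread, with 650 CPM against 362 in GlaKO and 606 against 245 in wt. Il1a was at 1024 against 754 in GlaKO and 1072 against 609 in wt, under 1.5-fold in GlaKO. Cd14, the lipopolysaccharide co-receptor, was at 773 against 402 in GlaKO and 868 against 456 in wt. Barcodes with microglial genes and high Cd74 had Cd14 at 1395 in GlaKO and 4361 in wt.

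At equal depth the difference in Il1b and Tnf remained. With every cell thinned to 1500 UMIs, Il1b was seen in 14% of GlaKO high-chemokine and 6.33% of GlaKO low-chemokine microglia, and in 17.0% and 3.48% of the same classes in wt. Without thinning the shares were 22.7% and 8.77% in GlaKO and 24.0% and 7.24% in wt. Thinned oligodendrocyte barcodes, which should lack Il1b, gave 0.579% in GlaKO and 0.233% in wt at median depths before thinning of 6711 and 5821. Tnf was seen in 39.3% of GlaKO high-chemokine and 27.1% of GlaKO low-chemokine microglia after thinning, and in 44.4% and 22.6% in wt; without thinning these were 68.5% and 52.9% in GlaKO and 69.5% and 39.7% in wt. Thinned oligodendrocyte barcodes had Tnf in 0.362% in GlaKO and in 0 of 860 in wt. 

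NF-kB subunits and the inhibitors and survival genes it induces were higher in part. Of 16 read, 13 were above 0 and 5 past 1.5-fold in both libraries, beside 17.9% and 1.1% of all genes read. The list medians were 0.32 in GlaKO and 0.58 in wt. Bcl2a1d, an anti-apoptotic BCL2 family gene, had the largest ratio of all genes by the lower of its library values, with 72.9 CPM against 16.8 in GlaKO (log2 ratio 2.12, 1.61 to 2.65) and 86.9 against 14 in wt (2.63, 1.92 to 3.41). In the barcodes with microglial genes and high Cd74, Bcl2a1d was at 202 CPM in GlaKO and 436 in wt. Bcl2a1a had log2 ratios of 1.29 in GlaKO and 1.10 in wt. The Bcl2a1 genes are near-identical copies, so reads of 1 copy can be counted to another and the split between them is uncertain. Cd83, a surface protein of activated antigen-presenting cells, was at 1230 against 706 in GlaKO and 1187 against 742 in wt. The inhibitor gene Nfkbia, which encodes the protein that holds NF-kB in the cytoplasm, was at 2738 against 2398 in GlaKO and 2694 against 1811 in wt, and the subunit gene Nfkb1 at 134 against 134 and 139 against 137. Nfkb1 was thus level between the classes while several other genes of the list differed. It is 1 subunit gene, and NF-kB activity was not measured.

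The dissociation and immediate-early genes went with the chemokine UMIs by small ratios as a list, but often beyond counting error. Of 32 genes listed, 27 were read, and 19 were above 0 and 5 below 0 in both libraries. Past 1.5-fold in both were 2, Egr3 and Gadd45b. Of all genes read, 17.9% were above 0 and 1.1% past 1.5-fold in both. The counting intervals lay above 0 in both libraries for 12 of the 27 and below 0 for 3, beside 3.09% and 2.98% of all genes read. The list median log2 ratio was 0.15 in GlaKO and 0.10 in wt, and between 0.06 and 0.23 under all 14 other settings in either library. Their summed level was 54800 CPM in GlaKO high-chemokine against 51085 in low-chemokine microglia, and 51130 against 49897 in wt. Both classes were thus high: the same genes summed to 10258 in GlaKO and 11137 in wt oligodendrocyte barcodes and to 10441 in GlaKO and 10231 in wt T cell barcodes. Fos was at 5001 against 4669 in GlaKO and 4692 against 4451 in wt, and Jun, its partner in the AP-1 transcription factor, at 7310 against 7578 in GlaKO and 6732 against 7582 in wt. Junb and Egr1 had log2 ratios between 0.08 and 0.21.

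A few immediate-early genes stood above the rest of the list. Egr3, a zinc-finger transcription factor, was at 109 CPM in GlaKO high-chemokine against 29.9 in low-chemokine microglia (log2 ratio 1.86, 1.48 to 2.26) and 84.9 against 24.5 in wt (1.79, 1.21 to 2.40). Gadd45b, a stress-induced gene, was at 285 against 176 in GlaKO and 412 against 120 in wt. Nr4a1, an orphan nuclear receptor induced by many stimuli, was at 362 against 255 in GlaKO and 291 against 154 in wt. Atf3, a stress-induced transcription factor, was at 4029 against 2951 in GlaKO and 3759 against 3009 in wt, with log2 ratios of 0.45 and 0.32. At equal depth Atf3 was seen in 88.6% of GlaKO high-chemokine and 73.2% of GlaKO low-chemokine microglia, and in 83.7% and 71.1% in wt (95.8% and 81.2% in GlaKO and 90.3% and 75.2% in wt without thinning). Oligodendrocyte barcodes had it in 5.94% in GlaKO and 5.93% in wt after thinning. Across thinned microglia the Spearman correlation with chemokine UMIs was 0.18 in GlaKO and 0.15 in wt for Atf3, and 0.16 and 0.17 for Nr4a1. For Tnf it was 0.14 and 0.27, and the median over the dissociation genes was 0.05 and 0.09. Rgs1, a G-protein regulator often induced by dissociation, went the other way, with log2 ratios of -0.06 in GlaKO and -0.61 in wt.

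Heat shock genes, which encode chaperones and rise under protein stress, had ratios near 0. Of 16 read, 0 were past 1.5-fold in both libraries in either direction, beside 1.1% higher and 0.105% lower of all genes read. The medians were -0.02 in GlaKO and -0.07 in wt, with both signs seen under other settings (-0.03 to 0.02 in GlaKO and -0.10 to 0.07 in wt). Hspa1a, the inducible HSP70 gene, was at 453 against 479 in GlaKO and 522 against 349 in wt. The summed level of the list was 9162 in GlaKO high-chemokine against 9187 in low-chemokine microglia and 8280 against 8338 in wt.

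The same pattern appeared when microglia were ordered by each list's share of the UMIs of a cell, after thinning, and cut into 4 equal parts. By NF-kB genes, high-chemokine microglia made up 28.4% (21.9% to 35.7%) of the lowest and 55.4% (47.7% to 62.9%) of the highest part in GlaKO, and 20.9% (13.7% to 29.7%) and 52.7% (43.0% to 62.3%) in wt. By cytokine genes the shares in the lowest and highest part were 34.7% and 57.7% in GlaKO and 21.8% and 52.7% in wt. By dissociation genes they were 39.2%, 40.3%, 47.2% and 48.6% from the lowest to the highest part in GlaKO, and 25.5%, 40.0%, 37.3% and 36.4% in wt. By heat shock genes they were 42%, 49.4%, 40.3% and 43.4% in GlaKO and 39.1%, 34.5%, 31.8% and 33.6% in wt. The share of high-chemokine microglia thus differed more between the ends of the NF-kB and cytokine orders than between those of the dissociation and heat shock orders, in both libraries. Across thinned cells the Spearman correlation of chemokine UMIs with a list was 0.20 in GlaKO and 0.25 in wt for NF-kB genes and 0.07 and 0.09 for dissociation genes, over 703 GlaKO and 440 wt cells that share a library.

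**Figure D3:**
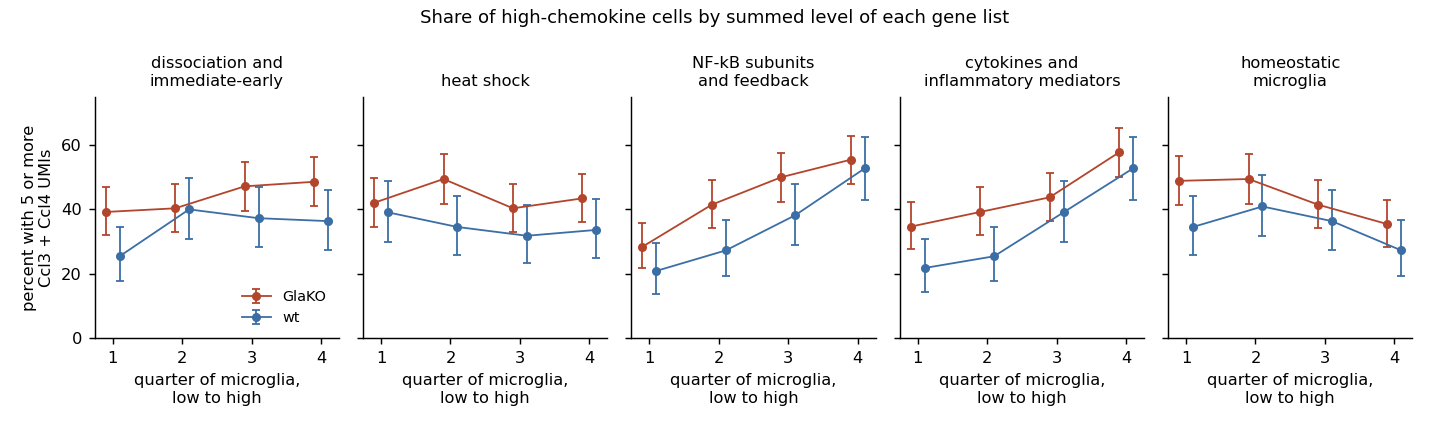
Share of high-chemokine microglia (percent, vertical axis, with exact 95% intervals for counting error) in 4 equal parts of microglia ordered from low to high by the thinned UMIs of each gene list (horizontal axis), GlaKO and wt libraries. For NF-kB genes the share goes up to 55.4% in GlaKO and 52.7% in wt in the highest part, while for heat shock genes it is 43.4% and 33.6% there.

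Along the whole range of chemokine UMIs the genes followed different courses. Csf1 was at 44 CPM in GlaKO microglia with 0 chemokine UMIs and at 284 in those with 50 or more, and in wt at 41 and 438. Egr3 was at 25 and 159 in GlaKO and 23 and 168 in wt at the same ends. Tnf was at 357 and 996 in GlaKO and 226 and 892 in wt. The dissociation list summed to 51230 and 57071 in GlaKO and 48390 and 57297 in wt, and Atf3 to 2981 and 4885 in GlaKO and 2819 and 5404 in wt. Wt cells with 5 to 9 and 10 to 19 chemokine UMIs had Atf3 at 2806 and 2946, near the level at 0 chemokine UMIs, while GlaKO cells in those classes had 3534 and 3934. The homeostatic list summed to 103528 and 89801 in GlaKO and 104412 and 98674 in wt.

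**Figure D4:**
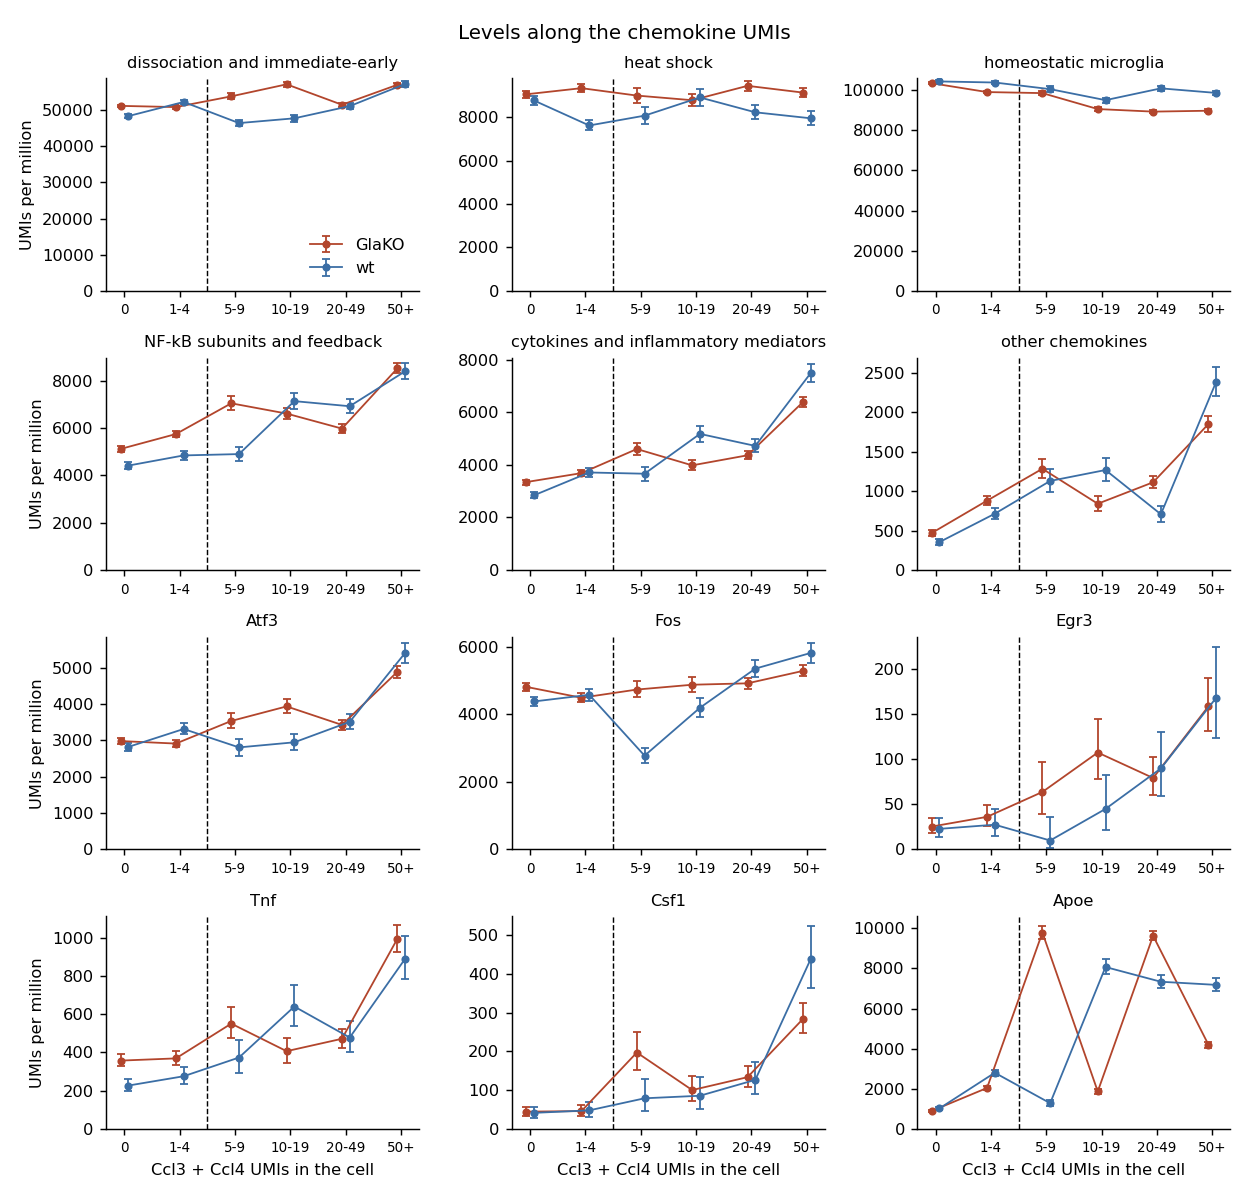
Levels (CPM, vertical axes) of selected genes and lists along classes of Ccl3 and Ccl4 UMIs per cell (horizontal axes, low to high), GlaKO and wt, with exact 95% Poisson intervals and a dashed line at 5 UMIs. Csf1 reaches 284 in GlaKO and 438 in wt in cells with 50 or more chemokine UMIs, while the dissociation list stays between 46461 and 57297 in all classes.

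Homeostatic microglial genes had ratios slightly below 0. Of 26 read, 19 were below 0 and 2 above 0 in both libraries, against 41.0% and 17.9% of all genes read. In either direction 0 were past 1.5-fold, beside 1.1% higher and 0.105% lower of all genes read. The median log2 ratio was -0.17 in both libraries. Under TMM scaling these medians were -0.12 in GlaKO and -0.035 in wt. Tmem119, a microglial surface protein, was at 1100 against 1273 in GlaKO and 1013 against 1330 in wt. P2ry13, an ADP receptor, had log2 ratios of -0.37 in GlaKO and -0.30 in wt. P2ry12 and Cx3cr1, which belong to the rule, were at 1856 against 2373 and 1894 against 2212 in GlaKO and at 1731 against 2379 and 1778 against 2156 in wt.

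Genes of disease-associated microglia were above 0 in both libraries in 10 of 10 read, but only Apoe was past 1.5-fold. Of all genes read, 17.9% were above 0 and 1.1% past 1.5-fold in both. The list medians were 0.46 in GlaKO and 0.34 in wt. Apoe, the lipid carrier apolipoprotein E, was at 6392 CPM in GlaKO high-chemokine against 1382 in low-chemokine microglia and at 6225 against 1696 in wt. It was not particular to high-chemokine microglia. Barcodes with microglial genes and high Cd74 had 10571 in GlaKO and 48534 in wt, oligodendrocyte barcodes 4750 and 4965, and choroid plexus barcodes 4281 and 7186. The level in high-chemokine microglia rested on few cells. The median high-chemokine cell had 2 Apoe UMIs in GlaKO and 3 in wt, while 27 GlaKO and 9 wt cells with 100 or more held 85.5% and 77.7% of the UMIs. Those cells were also low in Tmem119 (394 CPM in GlaKO and 246 in wt) and high in the macrophage lysozyme gene Lyz2 (3747 in GlaKO and 4602 in wt) against all high-chemokine microglia (799 in GlaKO and 803 in wt). The border macrophage marker Mrc1 was at 277 in GlaKO and 262 in wt in them, and 7 GlaKO and 2 wt of them had 3 or more UMIs of other immune markers. After thinning, Apoe was seen in 50.6% of GlaKO (44.9% to 56.4%) and 62.1% of wt (53.9% to 69.8%) high-chemokine microglia, and in 44.6% of GlaKO (39.6% to 49.6%) and 55.4% of wt (49.4% to 61.2%) low-chemokine microglia. These intervals overlap within each library. T cell barcodes, which should lack Apoe, had it in 28.8% in GlaKO and 32.3% in wt after thinning, with median depths before thinning of 4973 and 4256 UMIs. Without thinning, Apoe was seen in 85.4% of GlaKO and 83.8% of wt high-chemokine microglia, in 77.9% of GlaKO and 81.7% of wt low-chemokine microglia, and in 65.3% of GlaKO and 71.4% of wt T cell barcodes.

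Without the tenth of cells with the most Apoe UMIs in each class, 35 of the 42 genes stayed past 1.5-fold in both libraries. The 7 that did not were Wfdc17, Cxcl2, Igsf6, Anxa5, Emp3, Tnfaip2 and Cdkn1a. Without cells holding 3 or more other immune marker UMIs 36 stayed, with Cxcl2, Vcam1, Tnfaip2, Cdkn1a and C3ar1 among those that did not, and 32 stayed under both. Il1b, Csf1, Bcl2a1d and Egr3 were among those that stayed under each. Apoe itself had log2 ratios of 1.65 in GlaKO and 1.05 in wt without those cells.

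Interferon-response genes were uneven. Of 7 read, 6 were above 0 and 4 past 1.5-fold in both libraries, beside 17.9% and 1.1% of all genes read. The medians were 0.67 in GlaKO and 1.25 in wt, but single cells held much of the UMIs. Ifit3 had 82.6% of its GlaKO and 65.3% of its wt high-chemokine UMIs in 1 cell each. Ifi27l2a, an interferon-induced gene, was more widespread, at 89.8 against 39.4 in GlaKO (61 high-chemokine cells) and 86.9 against 36.4 in wt (32 cells). With a minimum of 300 summed UMIs the list median was -0.01 in GlaKO and 0.51 in wt.

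Other genes with large ratios came from several functions. Vcam1, an adhesion molecule, had log2 ratios of 1.36 in GlaKO and 1.35 in wt, with 1 wt cell holding 48.8% of its high-chemokine UMIs. Wfdc17 had 1.82 in GlaKO and 5.25 in wt, and 1 wt cell held 76.6% of its high-chemokine UMIs. Hcar2, a receptor for beta-hydroxybutyrate and niacin, had 1.03 in GlaKO and 1.54 in wt, and Arl5c, of the ARF-like GTPase family, 1.16 and 1.43. Ccrl2, an atypical receptor that binds chemerin, was at 373 against 171 in GlaKO and 231 against 113 in wt. Tlr2, a receptor for bacterial lipoproteins, had 0.64 in GlaKO and 0.81 in wt, Pfkfb3, a regulator of glycolysis, 0.68 and 0.73, and Dusp2, a MAP kinase phosphatase, 0.70 and 1.70. In all, 18 of the 42 genes belonged to no list. Several lists had 0 genes past 1.5-fold in either direction in both libraries. Among them were the lysosomal hydrolases (21 read, medians 0.08 in GlaKO and 0.09 in wt) and MHC class I (9 read). Integrated stress and unfolded protein response (10 read) and mitochondrially encoded genes (12 read, medians -0.19 in GlaKO and 0.15 in wt) were others. Of all genes read, 1.1% were past 1.5-fold higher and 0.105% lower, so 0 in lists this short does not set them apart.

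The 4 genes lower in both libraries were Nrgn, Snhg11, Clu and Khdrbs3. Nrgn, a neuronal calmodulin-binding protein, was at 39.6 CPM in GlaKO high-chemokine against 66.4 in low-chemokine microglia and at 45.9 against 98.7 in wt. Clu, the secreted chaperone clusterin, was at 44.2 against 111 in GlaKO and 53.9 against 88.9 in wt, but without the tenth of cells with the most Apoe its log2 ratios were 0.22 in GlaKO and 0.13 in wt. Snhg11, a long non-coding RNA, had -1.95 in GlaKO and -0.73 in wt, with the wt value at 0.21 when every cell weighed the same. Khdrbs3, an RNA-binding protein, was spread over more cells, at 92.0 against 145 in GlaKO and 70.9 against 114 in wt. Markers of neurons and astrocytes moved with Nrgn, Snhg11 and Clu. The 5 neuron markers, Nrgn among them, summed to 107 against 208 in GlaKO and 105 against 210 in wt. These sums rested on few cells: 1 low-chemokine cell held 141 of 507 UMIs in GlaKO and 154 of 300 in wt. For Snhg11, 1 low-chemokine cell held 47.4% of the UMIs in GlaKO and 66.7% in wt, and for Nrgn 41.1% in wt. The 6 astrocyte markers summed to 382 against 572 in GlaKO and 364 against 417 in wt. The part of neuron and astrocyte markers in these genes was not tested. The next lowest, Triap1, Zfp68, Tia1, Usf1, Pdk1 and Rad21, had log2 ratios between -0.50 and -0.78.

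Promoter sequence was read for the genes that went with the chemokines, since these moved together in both libraries. RefSeq promoters (GRCm38.p6, 250 bases before to 50 after the start of the gene) were held for 31 of the 42 genes and for Ccl3. Below are Ccl3, for which none of the searched motifs was found, the growth factor gene Csf1 and the chemokine gene Cxcl2 with NF-kB consensus matches, Bcl2a1d with an AP-1 match and Il1b with a TATA box. Capitals mark these matches.
Ccl3, chr11:83649329-83649628, minus strand: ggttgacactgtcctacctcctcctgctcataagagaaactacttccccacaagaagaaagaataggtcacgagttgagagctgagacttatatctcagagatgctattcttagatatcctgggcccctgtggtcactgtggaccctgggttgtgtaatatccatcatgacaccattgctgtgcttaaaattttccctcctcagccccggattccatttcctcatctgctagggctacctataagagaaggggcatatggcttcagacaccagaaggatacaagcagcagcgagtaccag
Csf1, chr3:107760420-107760719, minus strand: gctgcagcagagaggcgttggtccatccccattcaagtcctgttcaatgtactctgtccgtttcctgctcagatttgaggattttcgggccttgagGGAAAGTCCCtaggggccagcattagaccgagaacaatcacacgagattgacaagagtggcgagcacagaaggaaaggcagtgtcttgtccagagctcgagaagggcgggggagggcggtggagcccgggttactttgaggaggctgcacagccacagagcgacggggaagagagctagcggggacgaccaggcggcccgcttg
Cxcl2, chr5:90903649-90903948, plus strand: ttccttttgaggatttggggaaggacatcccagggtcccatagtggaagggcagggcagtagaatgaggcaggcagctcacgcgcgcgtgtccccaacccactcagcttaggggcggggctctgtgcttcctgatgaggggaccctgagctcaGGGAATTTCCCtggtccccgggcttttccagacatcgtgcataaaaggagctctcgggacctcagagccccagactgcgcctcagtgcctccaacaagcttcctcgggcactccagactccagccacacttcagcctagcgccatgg
Bcl2a1d, chr9:88731801-88732100, minus strand: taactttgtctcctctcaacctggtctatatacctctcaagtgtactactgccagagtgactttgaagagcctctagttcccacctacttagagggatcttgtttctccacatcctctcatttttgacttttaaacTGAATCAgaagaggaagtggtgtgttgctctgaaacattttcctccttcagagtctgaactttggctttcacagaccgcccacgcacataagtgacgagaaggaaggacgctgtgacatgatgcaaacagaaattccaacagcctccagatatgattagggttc
Il1b, chr2:129371090-129371389, minus strand: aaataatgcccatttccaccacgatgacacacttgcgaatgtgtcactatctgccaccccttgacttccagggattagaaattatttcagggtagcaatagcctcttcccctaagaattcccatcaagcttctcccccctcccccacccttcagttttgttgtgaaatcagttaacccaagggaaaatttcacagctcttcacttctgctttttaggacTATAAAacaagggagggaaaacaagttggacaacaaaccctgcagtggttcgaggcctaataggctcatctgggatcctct

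Motifs were searched on both strands. The NF-kB consensus was in 6 of the 31 promoters, or 19.4%, against 8.18% of 27025 RefSeq mouse promoters of the same length. The match in Csf1 began 154 bases before the start, and Cxcl2 had a pair of overlapping matches 97 and 96 bases before it. The AP-1 motif TGANTCA was in 5 of 31, or 16.1%, against 7.93%, with that of Bcl2a1d beginning 114 bases before the start. The C/EBP motif TTGCNNAA was in 1 of 31, or 3.23%, against 10.8%. TATAAA was in 10 of 31, or 32.3%, against 14.2%, with that of Il1b beginning 31 bases before the start. Near-identical copies such as the Bcl2a1 genes count more than once in these shares, and a match is not evidence that a factor bound there.

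The question the study's design poses is whether GlaKO and wt cells differ. In high-chemokine microglia most genes were at like levels: among 4618 genes with at least 100 summed UMIs, 194, or 4.2%, were 1.5-fold or more higher in GlaKO and 62, or 1.34%, lower, with a median log2 ratio of GlaKO over wt of 0.03. Under TMM scaling 143 were higher and 80 lower. This compares 1 library with 1. Ccl3 itself was at 1565 CPM in GlaKO and 1818 in wt high-chemokine microglia, and Ccl4 at 4982 in GlaKO and 5089 in wt, both set in part by the threshold.

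Of the 15 genes with the largest ratios of high-chemokine over low-chemokine microglia, 11 were within 1.5-fold between the genotypes and 4 were not. Of all genes read, fewer were past 1.5-fold, 4.2% higher and 1.34% lower in GlaKO. Csf1 had a log2 ratio of GlaKO over wt of -0.04 (-0.29 to 0.22), Il1b -0.14 (-0.32 to 0.05), Bcl2a1d -0.25 (-0.64 to 0.14) and Apoe 0.04. Past 1.5-fold were Wfdc17 at -1.40, Ccl12 at -0.95 (-1.11 to -0.78), Vcam1 at -0.70 (-1.12 to -0.27) and Ccrl2 at 0.69 (0.48 to 0.91). The cytokine list had a median of -0.13, the NF-kB list 0.05 and the homeostatic list -0.03. Of 29 dissociation genes read, 27 were above 0, against 55.2% of all genes read, but 1 was past 1.5-fold, and the median was 0.10 in high-chemokine and 0.12 in low-chemokine microglia. Among 9 other chemokines read, Cxcl10, an interferon-induced chemokine, was at 123 in GlaKO and 42.9 in wt, and Ccl12 at 289 in GlaKO and 558 in wt.

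The largest ratios between the genotypes included genes seen in few cells, near-identical copies and markers of other cells. Spp1, the secreted protein osteopontin, had a log2 ratio of 4.06, with 88.1% of its GlaKO UMIs in 1 cell, and -0.44 among cells with 20 or more chemokine UMIs. S100a4 and S100a6, calcium-binding proteins, were at 46.9 and 51.0 CPM in GlaKO against 3.00 and 12 in wt. A single GlaKO cell held 41.7% of the S100a4 UMIs, and a single GlaKO cell 50.9% of the S100a6 UMIs. Low-chemokine microglia had log2 ratios of 2.61 and 2.06 for these genes, so both were higher in GlaKO in both classes. Cd3g, a subunit of the T cell receptor complex, was seen in 8 GlaKO and 3 wt cells, at 49.7 CPM in GlaKO and 11 in wt. T and NK cell markers summed to 213 in GlaKO and 74.9 in wt, and border macrophage markers to 252 in GlaKO and 153 in wt; their part in these ratios was not tested. Hbb-bs, a haemoglobin chain of red blood cells, was in 102 GlaKO and 9 wt cells, with log2 ratios of 2.62 in high-chemokine and 1.87 in low-chemokine microglia. The ribonuclease genes Rnaset2a and Rnaset2b, whose sequences are nearly the same, had 1.60 and 1.78, and their split is uncertain. Gm13889, Ccl7 and Rps27rt had 2.27, 1.89 and 1.70, against 1.17, 1.33 and 1.43 in low-chemokine microglia. Ccl7 was seen in 9 GlaKO and 4 wt high-chemokine cells, with 47.5% of its GlaKO UMIs in 1 cell. Oligodendrocyte markers were higher in GlaKO in 5 of 5, beside 55.2% of all genes read. Their median log2 ratio was 0.95, against 0.52 in low-chemokine microglia.

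Lower in GlaKO were Nme2, a nucleoside diphosphate kinase, at 18.2 CPM against 95.9 in wt (log2 ratio -2.40, -2.97 to -1.85), Chchd10, a mitochondrial protein, at 22.8 against 64.9, and Mt3, a metallothionein, at 105 against 211. Low-chemokine microglia had log2 ratios of -1.80 for Nme2, -1.09 for Chchd10 and -0.56 for Mt3, so these 3 were lower in GlaKO in both classes. Gm10076 was alike in both classes at -1.32 and -1.27. Lpl, a lipoprotein lipase gene, had -1.83 and Gm26870 -2.68, with 77.9% and 79.7% of their wt UMIs in 1 cell each, and Lpl was at 0.35 among cells with 20 or more chemokine UMIs. Gm20186 had -1.54 in high-chemokine and 0.01 in low-chemokine microglia. Wfdc17 had -1.40 in high-chemokine (0.39 without the cell with the most UMIs in each library) and 2.03 in low-chemokine microglia, and Ifitm3, an antiviral membrane protein gene, -1.29 (-0.57 with equal weight per cell) and 0.97.

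**Figure D5:**
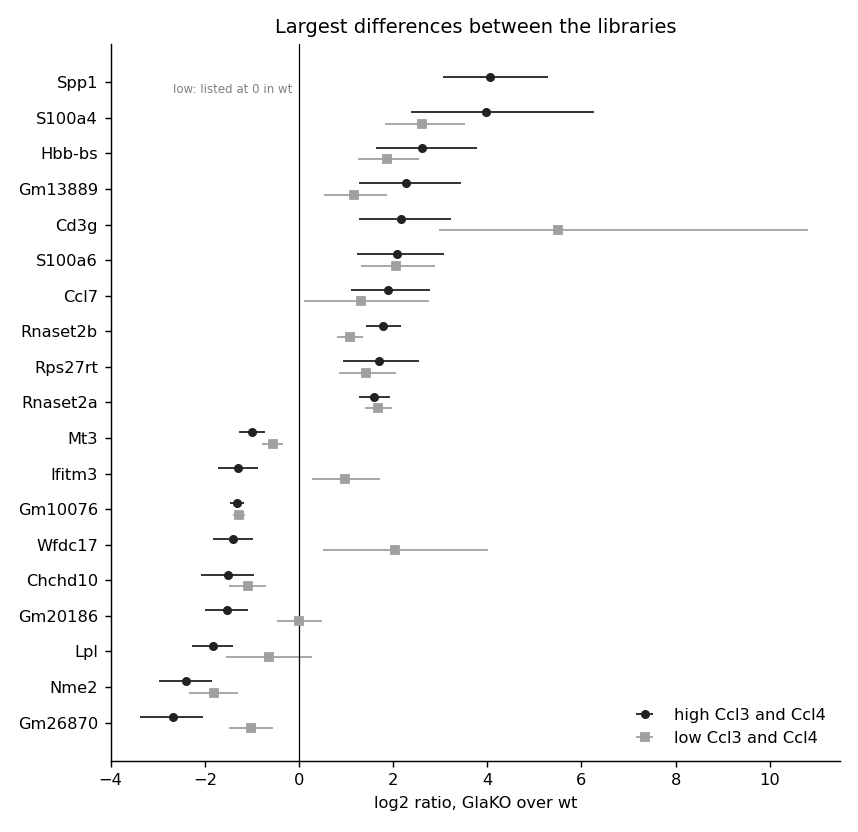
Log2 ratio of GlaKO over wt (horizontal axis, with exact 95% intervals for counting error) for the 10 genes most above and 9 of the 10 most below 0 in high-chemokine microglia (black, above) and the same genes in low-chemokine microglia (grey). Nme2 sits at -2.40 and -1.80 and Rnaset2a at 1.60 and 1.68 in high-chemokine and low-chemokine microglia, while Wfdc17 and Ifitm3 lie on opposite sides of 0.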

How the data were processed

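Single hippocampal cells of 1 GlaKO and 1 wt library were read. The deposited values were raw UMI counts, whole numbers per gene and barcode made by the authors, and were used as they stand. The tools named are Cell Ranger 6.0.1, R 4.1.3, Seurat 4 and build mm10, per the submitters' processing notes, and Cell Ranger 4.0 for demultiplexing, per the labels' protocols. Which annotation was counted against, and how barcodes and genes were filtered, is not given in the sources used. A total of 12744 genes listed in both libraries were compared, and 410 listed only for GlaKO and 264 listed only for wt were left out.

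Raw counts were summed over the cells of a class and library and divided by all their UMIs. Ratios carry exact conditional binomial 95% intervals, levels exact Poisson intervals and shares Clopper-Pearson intervals. Intervals and limits cover the counting of molecules only. A gene was read at 100 summed UMIs and counted at 1.5-fold. For shares of cells with a UMI, cells were thinned to 1500 UMIs. The named genes were the 15 with the highest and the 10 with the lowest weaker of the library ratios, the 10 highest and 10 lowest GlaKO over wt ratios whose interval lay on 1 side of 0, the rule genes, Gla and examples of each list, and a few genes that this rule names are not reported here. The cells and lists were chosen with earlier results of these data known. The choice of promoters printed and of a few further genes came after their values were seen.

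Scrublet (in scanpy 1.11.5) marked 70 GlaKO and 25 wt barcodes, 1.53% and 0.459%. The wt share is too low to say that the caller worked, so no barcode was removed, and an alternative left out the 4% with the highest scores. Other alternatives changed the thinning, the chemokine threshold, the low-chemokine class, the scaling, the weight of cells, the cell with the most UMIs of a gene, the depth balance and the minimum count. Leaving out cells with other immune markers or with the most Apoe was added after the data were seen. Scripts used Python 3.11.15, numpy 2.4.6, scipy 1.17.1, pandas 2.3.3 and matplotlib 3.10.9 and were tested on simulated data.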

Additional observations from a re-analysis of the deposited data

Results flagged for a closer look

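A gene that moved one way between genotypes in high-chemokine microglia and the other way in low-chemokine microglia was singled out, with no test of the difference, since each genotype had 1 library. Ifitm3 had a log2 ratio of GlaKO over wt of -1.29 in high-chemokine and 0.97 in low-chemokine microglia. It rested on 93 GlaKO and 104 wt UMIs in 37 and 18 high-chemokine cells, and on 77 GlaKO and 23 wt UMIs in low-chemokine cells, and 1 wt high-chemokine cell held 29.8% of the UMIs. The ratio in high-chemokine microglia was -0.83 after thinning to 1500 UMIs, -0.77 with equal weight over depth and -0.57, under 1.5-fold, with equal weight per cell. Hist1h2ap, of a family of near-identical histone genes, had 0.60 in high-chemokine and -0.60 in low-chemokine microglia, from 166 GlaKO and 50 wt UMIs and from 142 GlaKO and 126 wt UMIs. In GlaKO, 1 high-chemokine cell held 32.5% of its UMIs. The difference was not tested for either gene.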

How the results depend on the processing

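No paired analysis was possible because each genotype had 1 library. The count of genes higher in high-chemokine microglia in both libraries was between 36 and 62 under the other settings, and 17 with a minimum of 300 summed UMIs, at which fewer genes were read. The count of genes lower in both was 1 without the highest doublet scores, 51 after thinning to 1500 UMIs, 16 at 20 or more chemokine UMIs, 32 at a minimum of 50 and 0 at a minimum of 300. Genes higher in GlaKO high-chemokine microglia were 614 after thinning, 349 at 20 or more chemokine UMIs, 491 at a minimum of 50 and 28 at a minimum of 300, and genes lower in GlaKO were 406, 117, 202 and 11 at the same settings. Thinning leaves fewer UMIs per gene and wider counting error. The share of high-chemokine microglia was 28.2% in GlaKO and 20.7% in wt after thinning, 36.4% and 26.8% at 10 or more chemokine UMIs and 27.7% and 18.7% at 20 or more, higher in GlaKO each time.

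Single genes turned their direction as follows, and the cause was not tested. Spp1 between genotypes was at -0.32 and -0.44 at 10 and 20 or more chemokine UMIs, and Lpl at 0.35 at 20 or more. Wfdc17 between genotypes was at 0.39 without the cell with the most UMIs, 1.94 without cells with other immune markers and 1.99 without the cells with the most Apoe, where its wt ratio of high-chemokine over low-chemokine microglia was -0.10. For high-chemokine over low-chemokine microglia, Snhg11 in wt was at 0.21 with equal weight per cell and 0.18 with equal weight over depth. Cxcl2 in wt was at -0.46 without cells with other immune markers and -0.056 without the cells with the most Apoe, where Clu was at 0.22 in GlaKO and 0.13 in wt. Depth limits genes of few UMIs, and 1 library per genotype limits every comparison between GlaKO and wt.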
